A study of Arabidopsis thaliana with 32 samples.

Results

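The calcineurin B-like (*CBL*) genes of Arabidopsis encode the 10 calcium sensors CBL1 to CBL10, and their rows were taken by gene identifier from every monosome and polysome table, 10 of the 28394 genes listed in all. The study asked how disturbed mitochondrial calcium uptake and mitochondrial stress act on translation. RNA of ribosome fractions came from 10-day-old whole seedlings in 5 groups. Untreated wild type (Col-0) had 4 replicates per fraction and each other group 3, which gave 32 libraries. *2OX* is a single line that overexpresses *MCU2*, a mitochondrial calcium uniporter gene, from the 35S promoter as a YFP fusion. The sextuple mutant carries insertions and an edited allele in *MCU1* to *MCU6* and is a knockdown that keeps transcripts of these genes. Col_AA is Col-0 treated with 50 µM antimycin (AA), an inhibitor of mitochondrial electron transport, and Col_CK is Col-0 treated with DMSO, called DMSO below. The labels give 5 hours of treatment and the study's methods a shorter time. The AA and DMSO seedlings had been moved to liquid medium, kept in the dark overnight with shaking according to the methods, whereas untreated Col-0, *2OX* and the sextuple mutant were collected from agar plates.

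CBL proteins bind calcium through EF hands and then recruit and activate CBL-interacting protein kinases (CIPKs), which phosphorylate ion channels and transporters. The CBL partner sets the place of the kinase in the cell. CBL1 and CBL9 sit at the plasma membrane and, with CIPK23, activate the potassium channel AKT1 and act on the nitrate transporter NRT1.1. CBL2 and CBL3 sit at the vacuolar membrane. CBL4, known as SOS3, works with CIPK24 (SOS2) on the sodium/proton antiporter SOS1 in salt tolerance of the root, and CBL10 does so in the shoot.

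The first 30 coding bases are shown because they carry the membrane anchor that separates both pairs of close relatives, with the codons for Met-Gly-Cys in capitals. The glycine of this motif can be myristoylated and the cysteine acylated. Of the 10 longest coding sequences in the RefSeq annotation (assembly TAIR10.1), 4 begin with these codons, and the start codon alone is in capitals in the vacuolar pair.
CBL1: ATGGGCTGCttccactcaaaggcagcaaaa
CBL9: ATGGGTTGTttccattccacggctgccaga
CBL4: ATGGGCTGCtctgtatcgaagaagaagaag
CBL5: ATGGGATGTgtttgcagcaagcaattagaa
CBL2: ATGtcgcagtgcgttgacggtatcaagcat
CBL3: ATGtcgcagtgcatagacggtttcaagcat
Over aligned coding bases, *CBL2* and *CBL3* were 85.9% identical, *CBL1* and *CBL9* 84.4%, and *CBL3* and *CBL7* 84.1%. No stretch of 50 bases in the longest transcript of a member occurred in another member's transcripts, and for stretches of 36 bases the share was 0.145% in *CBL3*, 0.276% in *CBL7* and 0 in the other 8.

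The members lie on 3 chromosomes. *CBL1* (AT4G17615) is at chr4:9816278-9819368 on the plus strand, and *CBL9* (AT5G47100) at chr5:19129640-19132304 on the minus strand. *CBL2* (AT5G55990) is at chr5:22671113-22674100 and *CBL8* (AT1G64480) at chr1:23947794-23950361. *CBL3* (AT4G26570) and *CBL7* (AT4G26560) are neighbours on the minus strand of chromosome 4, and 295 bases separate the end of *CBL3* from the start of *CBL7*. *CBL1* shares 29 bases with AT4G17616 on the same strand, and *CBL10* (AT4G33000) shares 14 bases with AT4G33010 on the opposite strand. The kit does not mark strand, so reads from those 14 bases could not be assigned to 1 of both genes. AT4G17616 did not pass the test in any comparison (adjusted p of 0.311 or more, limma), and neither did AT4G33010 (0.537 or more).

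*CBL1* and *CBL9*, which moved in opposite directions under AA, differed in the short motifs of their upstream sequence, and these 250 bases before the annotated start are shown for that reason. Capitals mark matches, on either strand, to TTGAC (the W-box core bound by WRKY factors), ACGTG (the core of the G-box and of abscisic acid response elements) and ACGCG (a motif bound by calmodulin-binding transcription activators). The *CBL1* sequence is chr4:9816028-9816277 on the plus strand and that of *CBL9* is chr5:19132305-19132554 on the minus strand.
CBL1: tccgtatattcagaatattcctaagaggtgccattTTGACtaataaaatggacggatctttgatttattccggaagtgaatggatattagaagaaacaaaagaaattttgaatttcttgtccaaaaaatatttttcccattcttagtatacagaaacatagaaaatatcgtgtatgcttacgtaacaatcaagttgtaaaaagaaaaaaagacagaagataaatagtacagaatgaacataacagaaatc
CBL9: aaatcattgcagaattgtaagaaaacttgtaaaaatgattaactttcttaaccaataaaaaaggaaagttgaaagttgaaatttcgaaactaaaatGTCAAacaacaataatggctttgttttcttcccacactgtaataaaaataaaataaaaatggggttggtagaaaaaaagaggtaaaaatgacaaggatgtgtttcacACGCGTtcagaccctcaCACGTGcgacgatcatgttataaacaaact
Windows from 250 bases before to 50 after the start were searched. The *CBL1* window held 1 W-box core and no match to the others. The *CBL9* window held 1 W-box core, a palindromic G-box, which matches the G-box core on both strands, and a palindromic activator motif, which also matches on both. Over 27443 protein-coding genes, 50.5% of windows held the W-box core, 26.7% the G-box core and 8.7% the activator motif. Of the members, *CBL3* and *CBL7* also held the G-box core. *CBL7* also held the activator motif, but after its annotated start. *CBL10* was the only one with CCGAC, the core of the cold and drought response element, found in 15% of windows. This match lies after the annotated start, which is also the start of the coding sequence, so it falls in coding bases and not upstream. The mitochondrial dysfunction motif, searched in 2 forms that 0.904% and 0.536% of windows held, had no match in any member. The W-box core was the only match in *CBL1*, *CBL2*, *CBL4*, *CBL6* and *CBL8*, of which *CBL1* rose and *CBL2*, *CBL6* and *CBL8* fell under AA. A link between motifs and direction of change was not tested. These matches are descriptions of the letters only, and the annotated starts of *CBL6*, *CBL8* and *CBL10* are marked as incomplete.

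The deposited values are a signal per gene and library, which the authors had adjusted for library size table by table, and they are not whole reads. In units of 1000000, library sums ran from 21.4 to 45.1. They also differed within a table, as between *2OX* monosome replicates 2 and 3 (43.3 and 23.9). Ribosomal RNA genes took 15.6% to 63.7% of these sums, and the depth in reads is unknown. *MCU2* was higher in *2OX* in both fractions (763 to 999 against 196 to 227 in polysome RNA, adjusted p = 3e-05, limma). In the sextuple mutant no *MCU* gene passed the test, and *MCU6* was nearest with 149 to 292 against 373 to 469 in polysome RNA (adjusted p = 0.0651). The libraries held shoot transcripts (*RBCS1A*, *CA1*, *LHCB1.1*) and root transcripts (*PYK10*, *CASP1*), and the flower genes *AG* and *AP3* stayed at or below 1.52 on a scale of 1000000 nuclear values per library (without ribosomal RNA), called nuclear-scaled below. Summed over the 3 shoot markers, DMSO and AA libraries held nuclear-scaled values of 5765 to 9325 and the plate-grown groups 36124 to 68347, in separately scaled tables.

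More *CBL* genes fell than rose under antimycin. In monosome RNA, *CBL1* rose while *CBL2*, *CBL6*, *CBL7*, *CBL8* and *CBL9* fell, so that 6 of the 9 members tested passed an adjusted p of 0.05, beside 22.0% of all 21095 genes tested. In polysome RNA, *CBL1* rose while *CBL2*, *CBL3*, *CBL6* and *CBL8* fell, 5 of 8 tested members beside 18.8% of 20614 genes. The median log2 change of the members tested was −0.56 in monosome RNA and −0.50 in polysome RNA, where all genes tested had medians of −0.02 and 0.01. These counts are descriptive, since *CBL7* and *CBL8* passed the filter on low values through the DMSO libraries, where they were high. Scaling each library to its nuclear values other than ribosomal RNA moved the median of all genes in monosome RNA to −0.18, and the share of higher calls from 52.8% to 32.1% (45.0% to 34.4% in polysome RNA). Among root markers, *EXPA7* and *COBL9* (root hairs) fell and *PYK10* rose in monosome RNA, and *EXPA7* and *CASP1* fell in polysome RNA, while *CA1* was the only one of 3 shoot markers that changed, rising in monosome RNA. The seed gene *CRA1* passed as higher in monosome RNA as well, at low values. Summed with the seed gene *SESA4*, which was not tested, nuclear-scaled values were 0.474 to 1.9 in AA and 0 to 0.719 in DMSO. The part of these tissue markers in the *CBL* changes was not tested, and fewer cells of a type and less RNA per cell cannot be told apart in whole seedlings.

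**Figure D1:**
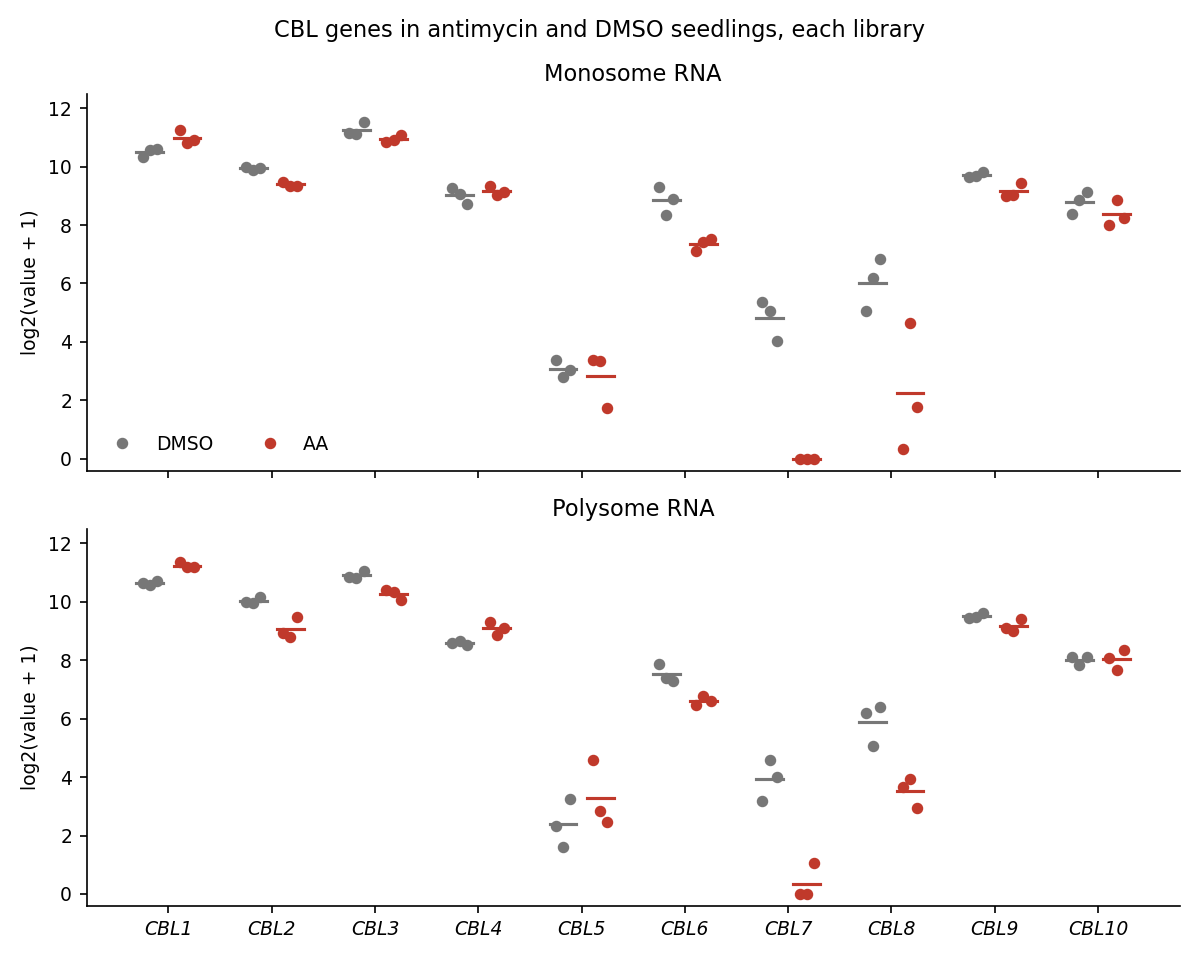
Each point is the log2(value + 1) of 1 library, with DMSO in grey, AA in red and bars at the mean of 3. *CBL1* sits higher in all AA than in all DMSO libraries in both fractions, *CBL2*, *CBL3*, *CBL6*, *CBL8* and *CBL9* sit lower, and *CBL7* was listed at 0 in the 3 AA monosome libraries.

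*CBL1*, the plasma membrane sensor, was the single member that rose. In monosome RNA it was at 1290, 1505 and 1558 in DMSO replicates 1 to 3 and at 2409, 1801 and 1924 in AA replicates 1 to 3, and the groups did not overlap. The log2 change was 0.49 ± 0.14 (SE, n = 3 per group, adjusted p = 0.0187, limma). In polysome RNA it was at 1579, 1505 and 1674 against 2605, 2315 and 2322, again without overlap, with a log2 change of 0.60 ± 0.14 (adjusted p = 0.0118). The monosome call was lost without AA replicate 1 (0.36, adjusted p = 0.103) or DMSO replicate 1 (0.41, 0.0934), and under quantile normalization (0.34, 0.105) or nuclear scaling (0.33, 0.100) and without the variance trend (0.114). The polysome call held under each normalization and was lost without DMSO replicate 1 (adjusted p = 0.0682) or DMSO replicate 2 (0.0729), at log2 changes of 0.60 and 0.57.

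*CBL9*, its closest relative and partner at the plasma membrane, moved the other way. Monosome values were 802, 820 and 910 in DMSO and 503, 521 and 696 in AA, a log2 change of −0.57 ± 0.17 (adjusted p = 0.0198). Polysome values were 692, 719 and 791 against 549, 507 and 684. The groups did not overlap in either fraction, but the polysome log2 change of −0.35 ± 0.17 missed the threshold (adjusted p = 0.189). The monosome call was lost without AA replicate 1 (−0.48, adjusted p = 0.0753), AA replicate 2 (−0.51, 0.0747) or DMSO replicate 3 (−0.51, 0.0653) and without the variance trend (0.0833), and the polysome change passed without AA replicate 3 (−0.47, 0.035). The ratio of the *CBL1* to the *CBL9* value was 1.72 ± 0.11 (SD, n = 3) in DMSO and 3.67 ± 1.03 in AA in monosome RNA. In polysome RNA it was 2.16 ± 0.10 and 4.23 ± 0.73, and the lowest AA ratio, 3.39, lay above the highest DMSO ratio, 2.28.

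Both vacuolar membrane sensors fell in polysome RNA. *CBL2* was at 1003, 954 and 995 in DMSO and 715, 648 and 647 in AA in monosome RNA, a log2 change of −0.56 ± 0.14 (adjusted p = 0.00914). In polysome RNA it was at 1013, 982 and 1131 against 481, 447 and 705, which was −0.96 ± 0.19 (adjusted p = 0.00492) or 1.95-fold lower. *CBL2* kept its call in both fractions when any 1 library was left out, with log2 changes of −0.60 to −0.53 and −1.16 to −0.84. *CBL3*, the member with the highest level per kb in DMSO, was at 1856, 1788 and 2139 in DMSO and 1346, 1290 and 1059 in AA in polysome RNA. Its log2 change there was −0.65 ± 0.16 (adjusted p = 0.0142), lost without DMSO replicate 1 (−0.67, 0.0603) or DMSO replicate 3 (−0.57, 0.0798). In monosome RNA it was at 2290, 2205 and 2923 against 1819, 1932 and 2142, and −0.32 ± 0.13 missed the threshold (adjusted p = 0.0986). It passed there under quantile normalization (−0.50, adjusted p = 0.0206), nuclear scaling (−0.48, 0.0218) and with the replicate number as a block (0.0283).

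*CBL6* had the strongest monosome fall among the members that stayed well measured in both groups. It was at 634, 322 and 470 in DMSO and 138, 171 and 181 in AA in monosome RNA, a log2 change of −1.49 ± 0.26 (adjusted p = 0.000453) or 2.81-fold lower. Every AA library lay below every DMSO library, and the call held without any 1 library, at −1.74 to −1.25. In polysome RNA *CBL6* was at 231, 168 and 155 against 87.0, 109 and 96.2, which was −0.90 ± 0.24 (adjusted p = 0.0237). That call was lost without AA replicate 1 (−0.82, 0.0509), DMSO replicate 1 (−0.73, 0.137) or DMSO replicate 2 (−0.96, 0.0628).

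*CBL7* and *CBL8* were low in DMSO and lower in AA. *CBL8* was at 32.7, 71.3 and 113 in DMSO and 0.257, 23.8 and 2.41 in AA in monosome RNA, and at 72.8, 32.4 and 83.4 against 11.5, 14.4 and 6.68 in polysome RNA. The groups did not overlap in either fraction. On the log2(value + 1) scale its changes were −3.78 ± 0.97 (adjusted p = 0.00967) and −2.38 ± 0.49 (adjusted p = 0.0054). *CBL8* passed the filter on low values through the DMSO libraries, where it was high, so these changes and p-values are descriptive. The size of the monosome change ran from −4.1 to −2.21 over the other settings with all libraries kept. The monosome call was lost without DMSO replicate 2 (−3.71, 0.0537) or DMSO replicate 3 (−3.38, 0.0685) and without the variance trend (0.0817), and the polysome call without DMSO replicate 3 (−2.12, 0.0521). *CBL7*, the neighbour of *CBL3*, was at 40.0, 32.6 and 15.4 in the DMSO monosome libraries and listed at 0 in all 3 of AA. It entered the test through those DMSO libraries, and no fold or p is given against a group listed at 0. In polysome RNA *CBL7* was at 8.11, 23.2 and 14.9 in DMSO and between 0.00241 and 1.07 in AA, and was not tested.

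The 3 members left did not pass in either fraction. *CBL4*, the SOS3 sensor, was at 381, 405 and 362 in DMSO and 626, 465 and 551 in AA in polysome RNA, without overlap, and its log2 change of 0.51 ± 0.18 missed the threshold (adjusted p = 0.0711). In monosome RNA it was at 612, 533 and 424 against 649, 525 and 556 (0.15 ± 0.18, adjusted p = 0.593). *CBL10* was at 333, 462 and 564 against 254, 461 and 302 in monosome RNA, where the groups overlapped and the log2 change was −0.43 ± 0.24 (adjusted p = 0.232). In polysome RNA its change was 0.00 ± 0.22, with a 95% interval of −0.48 to 0.49. *CBL5* stayed at or below 9.43 in monosome RNA and 22.9 in polysome RNA and was not tested.

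**Figure D2:**
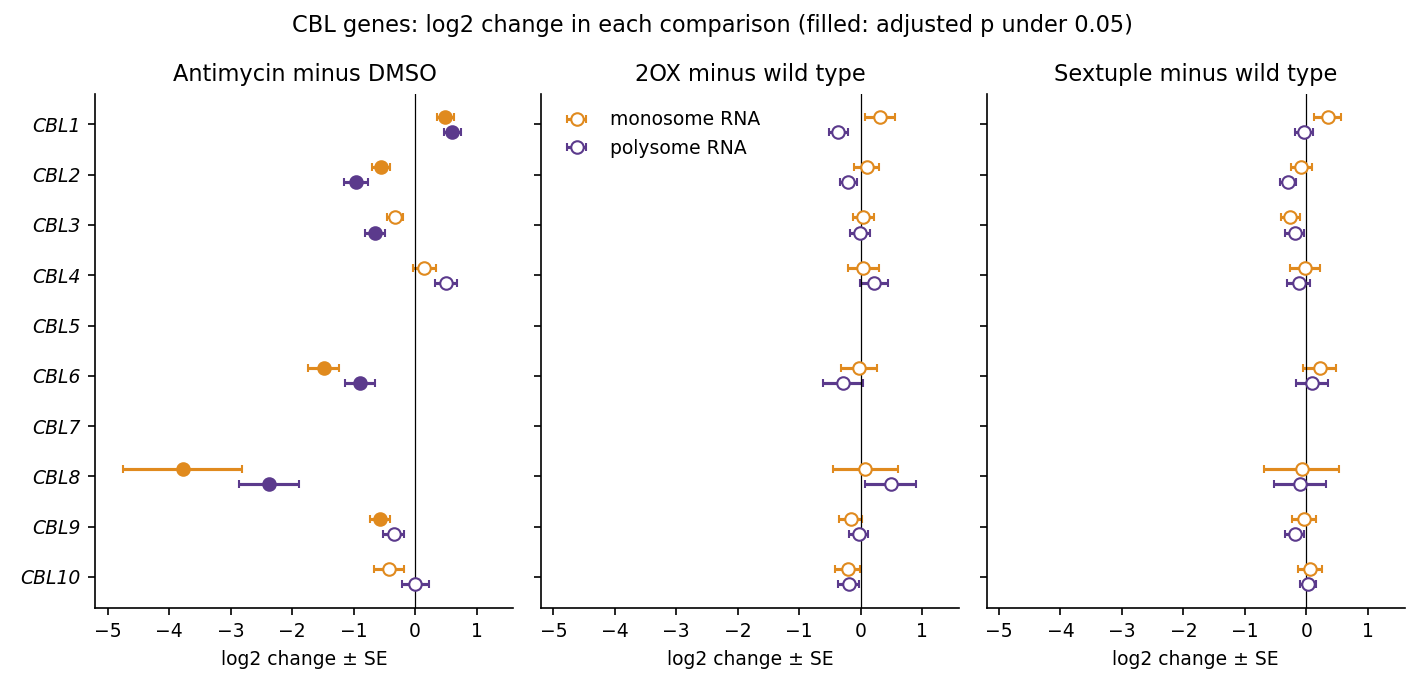
Points are log2 changes with SE bars on the log2(value + 1) scale for each tested member except *CBL7*. They are filled where the adjusted p was under 0.05. *CBL7*, listed at 0 in the 3 AA monosome libraries, is left out of every panel, so its *2OX* monosome change of 1.80 ± 1.25 is not drawn. Filled points occur only in the left panel, where *CBL1* lies above 0 and *CBL2*, *CBL3*, *CBL6*, *CBL8* and *CBL9* lie below.

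The change of the polysome to monosome ratio, the interaction of group and fraction, passed the test for 0 of 9 members under AA, beside 0.887% of 21769 genes (193 genes), and for 0 at an unadjusted p under 0.05, beside 11.9% of genes. Leaving aside the low *CBL7* and *CBL8*, the ratio changes ran from −0.41 ± 0.24 for *CBL2* (95% interval −0.90 to 0.09, adjusted p = 0.538) to 0.59 ± 0.37 for *CBL6* (−0.19 to 1.37, adjusted p = 0.579). The falls of *CBL2* and *CBL6* were not shown to differ between the fractions. This fit took the fractions of a sample as separate libraries, and with the sample as a block 0 members passed too.

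No tested member passed in the lines with altered *MCU* expression, where few of all genes did. In *2OX*, 0 of 9 tested members passed in monosome RNA and 0 of 8 in polysome RNA, beside 0.0866% and 0.171% of all genes, which are 17 and 34 genes. In the sextuple mutant, 0 of 8 passed in either fraction, beside 0.101% and 0.149%, which are 20 and 30 genes. At an unadjusted p under 0.05 there was 1 member in *2OX* polysome RNA and 1 in sextuple polysome RNA, beside 5.76% and 10% of all genes, and none in monosome RNA of either line, beside 4.9% and 5.6%. The ratio of the fractions passed for 0 of 9 members in *2OX*, beside 0.00486% of genes, and 0 of 8 in the sextuple mutant, beside 0% of 20800 genes, and at an unadjusted p under 0.05 for 1 member in *2OX* and 0 in the sextuple mutant, beside 1.65% and 3.55% of genes.

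*CBL1* was the member in *2OX* with an unadjusted p under 0.05. Its polysome values were 344, 303 and 352 in *2OX* and 431, 424 and 429 in wild type replicates 2 to 4, without overlap, a log2 change of −0.37 ± 0.16 (adjusted p = 0.835, limma). In monosome RNA *CBL1* was at 227, 390 and 224 against 202, 240 and 211, where the groups overlapped (0.32 ± 0.25, adjusted p = 0.998). Its ratio of polysome to monosome RNA was lower in *2OX* by 0.68 ± 0.29 on the log2 scale, with an unadjusted p from limma of 0.0308 and an adjusted p of 1. *CBL7* was at 3.64, 30.6 and 10.3 in *2OX* and 2, 0 and 12.1 in wild type in monosome RNA, where the groups overlapped (1.80 ± 1.25, adjusted p = 0.998). *CBL9* was at 394, 408 and 471 against 449, 433 and 547 in monosome RNA (adjusted p = 0.998).

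*CBL2* was the member in the sextuple mutant with an unadjusted p under 0.05. In polysome RNA it was at 1270, 1493 and 1638 in the mutant and 1871, 1777 and 1735 in wild type replicates 1, 2 and 4. The groups did not overlap, and the log2 change of −0.30 ± 0.13 did not pass (adjusted p = 0.464). *CBL3* was at 1149, 1030 and 1250 against 1347, 1215 and 1549 in monosome RNA, with overlap (−0.26 ± 0.15, adjusted p = 0.949). *CBL7* was listed at 0 in the 3 monosome libraries of the mutant and at 3.86, 2.59 and 13.6 in wild type, and was not tested there. *CBL5* was listed at 0 in all wild type libraries of the sextuple tables, reached 6.21 in the mutant, and was not analysed for *2OX*.

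The 95% interval of the *CBL6* monosome change ran from −0.64 to 0.59 in *2OX* and from −0.35 to 0.78 in the sextuple mutant, neither of which reached its AA change of −1.49. For *CBL10* the polysome intervals were −0.56 to 0.17 and −0.26 to 0.30. Over all tested members the polysome changes ran from −0.37 for *CBL1* to 0.49 for *CBL8* in *2OX*, and from −0.30 for *CBL2* to 0.10 for *CBL6* in the sextuple mutant.

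Whether a member responded differently to AA than to a line was tested by the difference of both changes, a test added after the values were seen. In polysome RNA the *CBL1* change under AA exceeded that in *2OX* by 0.97 ± 0.19 (adjusted p = 0.00377) and that in the sextuple mutant by 0.64 ± 0.19 (adjusted p = 0.0298), while its monosome differences of 0.17 and 0.14 did not pass (adjusted p = 0.806 for both). *CBL8* differed in polysome RNA from both lines, by −2.87 ± 0.66 (adjusted p = 0.01) and −2.28 ± 0.68 (adjusted p = 0.0334), and missed the threshold in monosome RNA (0.0548 and 0.0656). *CBL6* differed in monosome RNA, by −1.46 ± 0.40 from *2OX* (adjusted p = 0.0307) and −1.70 ± 0.38 from the sextuple mutant (adjusted p = 0.00646), and its polysome differences of −0.610 and −0.997 did not pass (0.445 and 0.0826). Of all genes, 6.24% and 8.56% passed against *2OX* in monosome and polysome RNA and 8% and 13.4% against the sextuple mutant. Of the 9 members in these tests, 2 and 2 passed against *2OX* and 1 and 2 against the sextuple mutant. The monosome count against *2OX* includes *CBL7*, for which no difference is given because it was listed at 0 in AA. *CBL2* missed the threshold in each of these 4 tests, with adjusted p of 0.0562 at the lowest, and *CBL9* had adjusted p of 0.243 or more. *CBL3*, *CBL4* and *CBL10* did not pass either, at adjusted p of 0.105 or more. AA differs from the lines also in the medium and the dark period, which its DMSO control shares.

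Nuclear-scaled levels per kb of transcript, a scale that allows members to be set side by side, gave the order of the members in untreated wild type, here replicates 2 to 4, which share a table. In monosome RNA *CBL3* was at 61.4 ± 3.78 (SD, n = 3), *CBL2* at 50.2 ± 9.66 and *CBL10*, the shoot partner of SOS2, at 36.6 ± 8.24. *CBL9* followed at 25.7 ± 1.83 and *CBL1* at 10.6 ± 1.17, and then *CBL4* at 8.49 ± 3.01, *CBL6* at 8.20 ± 1.61 and *CBL8* at 2.78 ± 1.68. The ranges of *CBL3* and *CBL2*, of *CBL2* and *CBL10*, and of *CBL1*, *CBL4* and *CBL6* overlapped, while *CBL9* and *CBL1* were apart. The level of *CBL4* depends on the transcript length used, because its longest annotated transcript has 4213 bases and the median one, used here, 1560.

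In the seedlings moved to liquid medium the order was another. In DMSO polysome RNA *CBL3* had a nuclear-scaled level of 54.7 ± 6.36 per kb, *CBL1* at 41.7 ± 3.05 and *CBL2* at 26.7 ± 2.52, whereas *CBL10* was at 8.40 ± 0.97. Untreated wild type had *CBL1* at 14 ± 0.15 and *CBL10* at 37.2 ± 2.34 in the same fraction, so *CBL1* stood higher and *CBL10* lower in DMSO, and the groups did not overlap. These tables were scaled separately and differ in medium and light, and no test was made between them. In AA polysome RNA *CBL1* was the highest member at 59.6 ± 5.40, above *CBL3* at 32.8 ± 4.32, and their ranges were apart. Its share of the summed level per kb of all members was 8.73% ± 0.65 in untreated wild type, 24.1% ± 0.28 in DMSO and 40.7% ± 1.65 in AA. In monosome RNA the shares were 5.16% ± 0.33, 18.2% ± 1.75 and 30.6% ± 4.36.

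**Figure D3:**
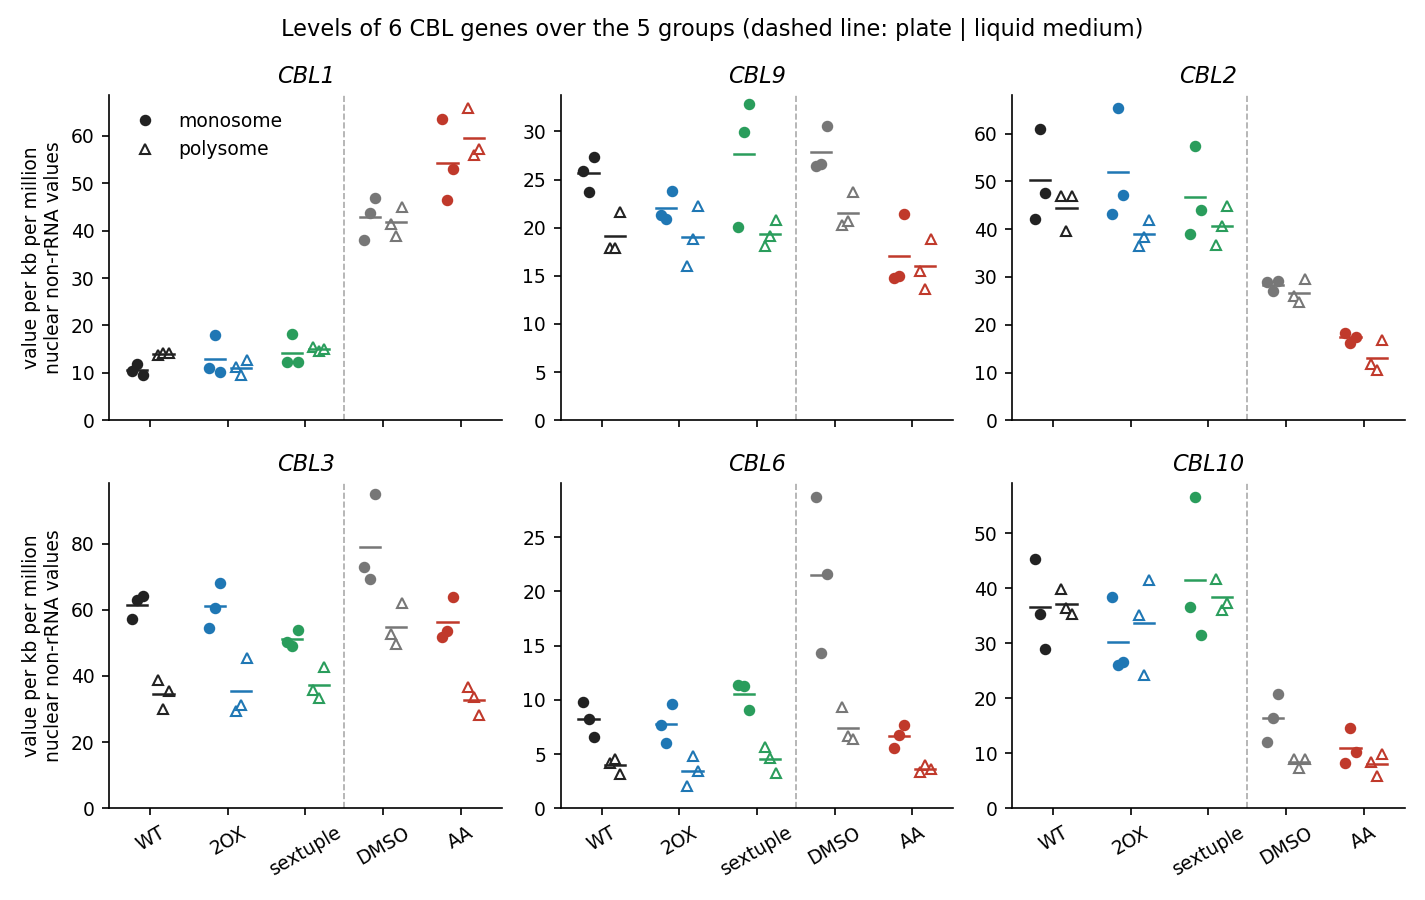
Points are single libraries, filled for monosome and open for polysome RNA, in nuclear-scaled value per kb of transcript, with bars at the mean and each axis starting at 0. WT is untreated wild type replicates 2 to 4, and the dashed line parts plate-grown seedlings from those moved to liquid medium. *CBL1* is low in the 3 plate-grown groups and highest in AA, and *CBL10* is lower in DMSO and AA than in the plate-grown groups.

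The members also differed in how their RNA was spread over the fractions. Relative to the median gene, the log2 ratio of polysome to monosome RNA of *CBL1* was 0.59 ± 0.16 (SD, n = 3) in wild type replicates 2 to 4, higher than in 78.4% of genes. *CBL9*, the plasma membrane partner, was at −0.25 ± 0.04 in the same samples, and the ranges of 0.42 to 0.73 and −0.28 to −0.21 were apart. *CBL6* had the lowest ratio of the well measured members, at −0.86 ± 0.16 in wild type, −1.17 ± 0.34 in DMSO and −0.58 ± 0.09 in AA. *CBL3* was below the median gene in every group, from −0.73 ± 0.10 in *2OX* to −0.19 ± 0.06 in DMSO, and *CBL2*, its close relative, was at 0.02 ± 0.47 in wild type and 0.24 ± 0.11 in DMSO.

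**Figure D4:**
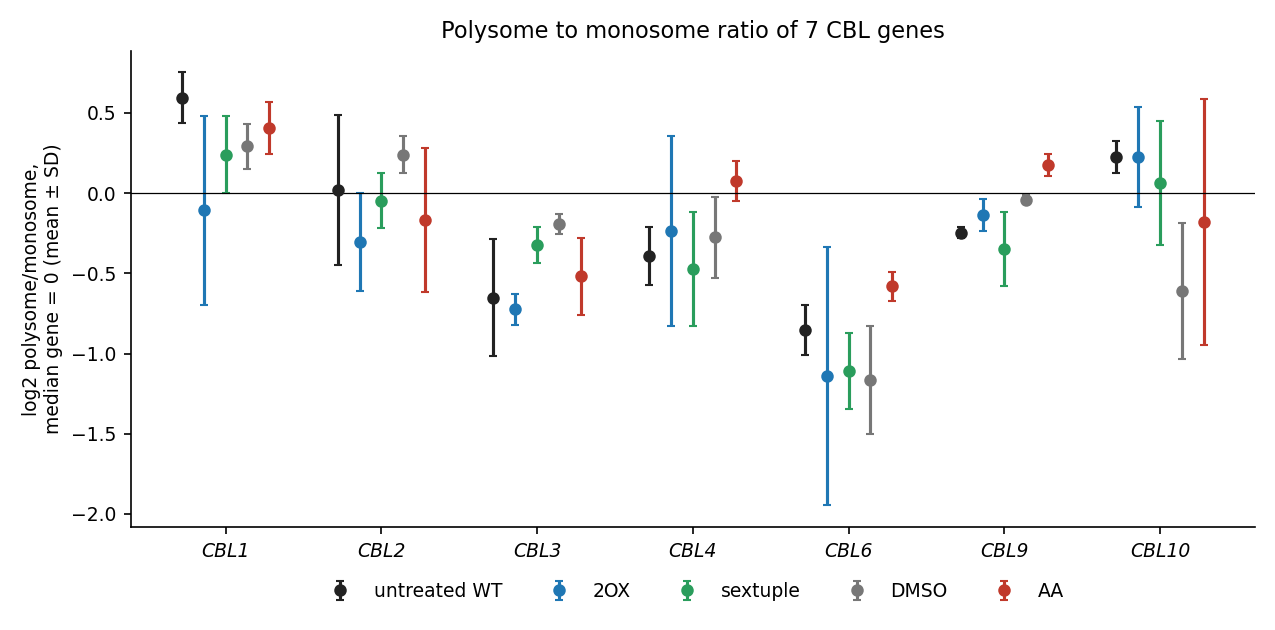
Points are the mean log2 ratio of polysome to monosome RNA with SD bars (n = 3), set so that the median gene of each library pair is 0, for the 7 members measured well in both fractions. *CBL6* and *CBL3* lie below 0 in all 5 groups, and *CBL1* lies above 0 in 4 of 5.

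Among the kinases that CBL proteins recruit, genes that rose and genes that fell under AA were both found. Of the 26 *CIPK* genes, 23 were tested in monosome RNA, where 3 rose and 1 fell, and 24 in polysome RNA, where 2 rose and 2 fell, counts of 4 in each fraction that are no larger a share than the 22.0% and 18.8% of all genes. Their median log2 changes were 0.01 and 0.15. *CIPK9*, a partner of CBL2 and CBL3 in ion homeostasis, rose from 1196 to 1439 in DMSO to 2039 to 2498 in AA in monosome RNA (0.82 ± 0.13, adjusted p = 0.000253). In polysome RNA *CIPK9* went from 1303 to 1455 up to 1698 to 2883 (0.77 ± 0.20, adjusted p = 0.0191). *CIPK6*, a partner of CBL4 in the targeting of the potassium channel AKT2, rose by 0.62 ± 0.16 (adjusted p = 0.0109) and 1.08 ± 0.20 (adjusted p = 0.00327). *CIPK26*, a kinase of the NADPH oxidase RBOHF, rose in monosome RNA (0.61 ± 0.15, adjusted p = 0.00672) and reached an adjusted p of 0.108 in polysome RNA.

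*CIPK25* fell in both fractions, from 325 to 404 in DMSO to 161 to 207 in AA in monosome RNA (−0.93 ± 0.22, adjusted p = 0.00598), and by 1.04 ± 0.23 on the log2 scale in polysome RNA (adjusted p = 0.00926). *CIPK4* fell in polysome RNA (−0.71 ± 0.21, adjusted p = 0.0349) and was at 0.01 ± 0.21 in monosome RNA, and the test of the difference between fractions did not pass (−0.72 ± 0.30, adjusted p = 0.347). *CIPK23*, the partner of CBL1 and CBL9, was lower in AA without overlap in both fractions but did not pass (−0.26 and −0.37, adjusted p = 0.15 and 0.108). *CIPK24*, the SOS2 kinase, was higher without overlap and did not pass either (0.50 and 0.34, adjusted p = 0.0795 and 0.258). No *CIPK* gene passed in *2OX* or the sextuple mutant, where 0.0866% to 0.171% of all genes did. At an unadjusted p under 0.05 there was 1 in each fraction of *2OX* and 3 in each fraction of the sextuple mutant, of 22 or 23 tested, beside 4.9% to 10% of all genes.

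Of 14 genes for targets of CBL-CIPK pairs, 13 were tested in monosome RNA under AA, where 1 rose and 2 fell, beside 22.0% of all genes called. In polysome RNA 12 were tested, where 1 rose and 0 fell, beside 18.8% of all genes. *AKT1*, the potassium channel that CBL1, CBL9 and CIPK23 activate, rose in both fractions, from 1413 to 1610 in DMSO to 2053 to 2394 in AA in monosome RNA (0.54 ± 0.12, adjusted p = 0.00454) and by 0.69 ± 0.17 in polysome RNA (adjusted p = 0.0169). *AKT1* shares 9 bases with AT2G26640 on the opposite strand. *SOS1*, the antiporter behind CBL4 and CIPK24, fell in monosome RNA from 269 to 301 down to 131 to 221 (−0.73 ± 0.25, adjusted p = 0.0438) and was at −0.21 ± 0.26 in polysome RNA (adjusted p = 0.626). *CAX1*, a vacuolar calcium/proton exchanger, fell in monosome RNA (−0.37 ± 0.12, adjusted p = 0.0398). No target gene passed in *2OX* or the sextuple mutant, where 0.0866% to 0.171% of all genes did. At an unadjusted p under 0.05 there were 0 of 12 tested in each fraction of *2OX*, beside 4.9% and 5.76% of all genes. In the sextuple mutant there were 1 and 2 of 12 tested in monosome and polysome RNA, beside 5.6% and 10% of all genes.

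**Figure D5:**
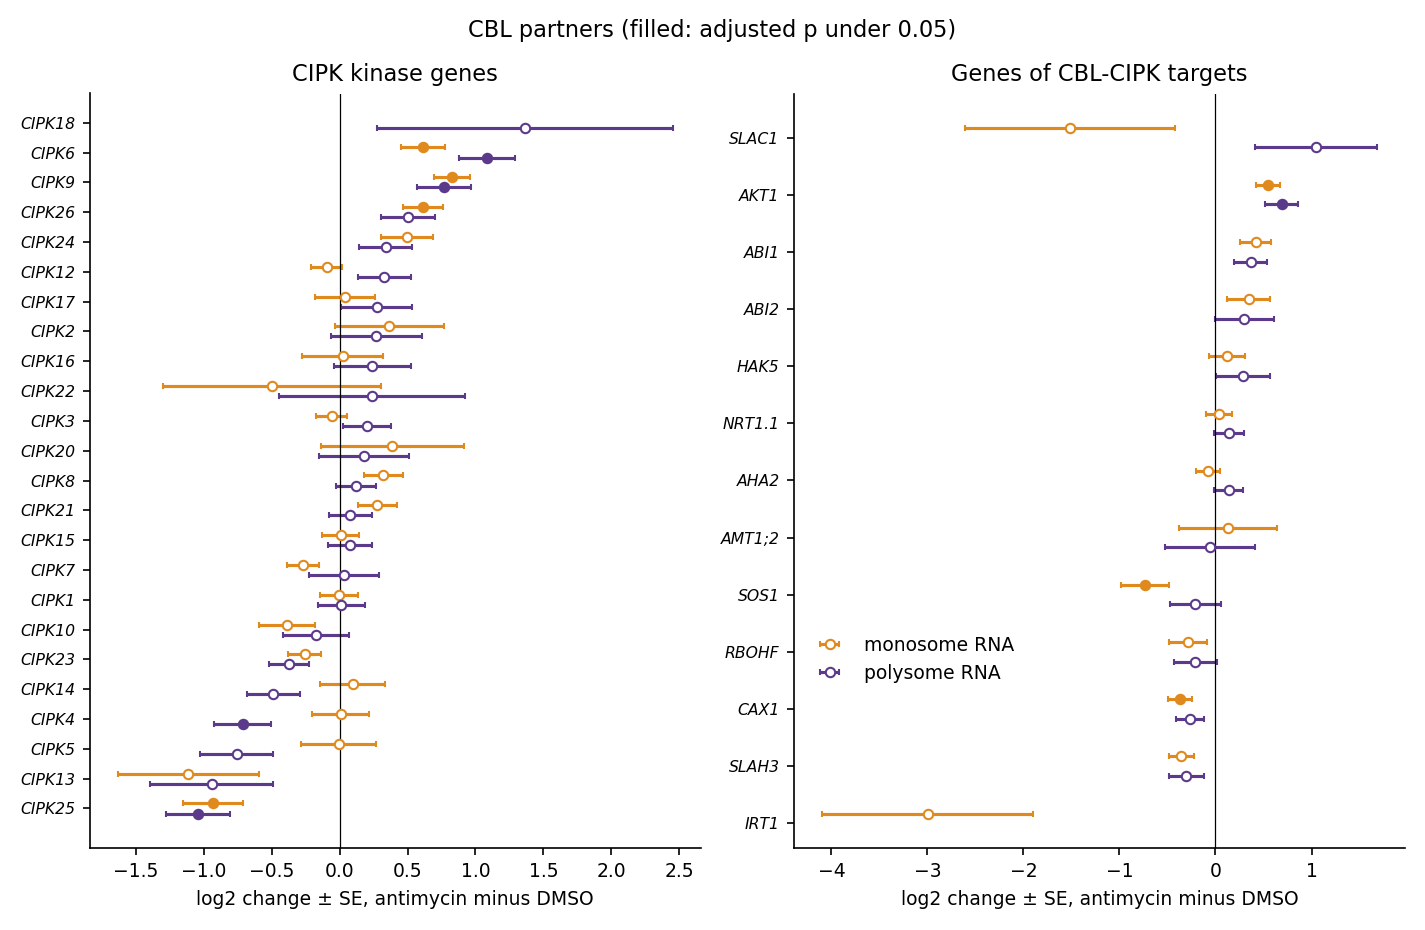
Points are log2 changes of AA against DMSO with SE bars, orange for monosome and purple for polysome RNA, filled where the adjusted p was under 0.05. Among the kinases *CIPK6* and *CIPK9* are filled above 0 and *CIPK25* below 0 in both fractions, and among the targets *AKT1* alone is filled in both.

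Over the 12 AA and DMSO libraries, centred within each fraction, the genes with a pattern most like that of *CBL8*, the member with the largest change among those tested in polysome RNA, were AT5G22890 (Pearson r = 0.952), AT4G25760 (0.948) and AT3G12540 (0.948) among 20257 genes. The other members ranged from −0.80 for *CBL1* and −0.71 for *CBL4* to 0.79 for *CBL6*. These correlations are descriptive, since the points share libraries and the split into AA and DMSO.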

How the data were processed

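RNA of monosome and polysome fractions was analysed from 32 libraries, grouped by the labels. Per the submitters' processing notes, Bowtie 0.12.2 and TAIR10 were used, and the counter, annotation and normalization are not given in the sources used here. The authors deposited a signal per gene and library, adjusted for library size within each of the 6 tables used (36 columns). Whole reads could not be recovered, so a count test was not run. The authors' own fold changes, p-values and scores, and 3 tables that repeat the same values, were not used.

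*2OX* was compared with wild type replicates 2 to 4, the sextuple mutant with wild type replicates 1, 2 and 4 (the columns of each table), and DMSO was the control of AA. Log2(value + 1) was fitted with limma 3.58.1 (R 4.3.3) with a variance trend, on genes at 10 or more in at least 3 libraries. P-values were two-sided and adjusted by Benjamini-Hochberg over every gene fitted (threshold 0.05). Nothing says that replicates came from separate cultures, so p-values measure the spread between these samples. Scripts were tested on simulated data. Levels per kb used the median RefSeq transcript length. Per-library scaling used nuclear genes outside ribosomal DNA. Sequences came from RefSeq (TAIR10.1), and Biopython 1.88 aligned coding bases.

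All 10 members were named. Of kinases and targets, up to 5 per comparison and fraction were named, by size among calls whose groups did not overlap, plus *CIPK23*, *CIPK24*, *SOS1* and *AKT1*. Members and lists were chosen with earlier results of these data known. Same-numbered samples of compared groups had correlated deviations of −0.09 to 0.11, so the numbers were not taken to pair samples. The monosome and polysome fractions of a sample had correlated deviations of 0.02 to 0.36. The main fit of the ratio still took them as separate libraries, and an alternative took the sample as a block. Pseudocount, filter, normalization, variance trend, block and left-out libraries were varied.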

Additional observations from a re-analysis of the deposited data

Results flagged for a closer look

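In untreated wild type, 2 of 18 sets of 4 samples had 1 sample far from the others. Chance gives about 1 in 20. *CBL1* in polysome RNA had a nuclear-scaled level of 23.1 in replicate 1 and 19.8 to 20.2 in replicates 2 to 4, and the gap took 0.879 of the range. Replicate 1 comes from the table of the sextuple mutant and the other 3 from that of *2OX*. Within the sextuple table *CBL1* was at 609 in replicate 1 and 512 and 509 in replicates 2 and 4. *CBL2* in polysome RNA had a nuclear-scaled level of 57.9 in replicate 3 and 68.7 to 70.9 in the others, and the gap took 0.834 of the range. Replicate 3 entered the *2OX* comparison and not that of the sextuple mutant.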

How the results depend on the processing

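In AA against DMSO, 6 members passed in monosome RNA and 3 did without the variance trend. Both counts include *CBL7*, which was listed at 0 in AA and entered the test through the DMSO libraries. Leaving out 1 library at a time gave 3 to 6 members in monosome RNA, the lowest without DMSO replicate 3. Without any 1 DMSO library *CBL7* failed the filter on low values, so it left the monosome count for that reason. In polysome RNA 2 to 6 passed, where 5 passed in the full data, 2 without DMSO replicate 1 and 3 without DMSO replicate 2 or 3. All counts of 0, in *2OX*, the sextuple mutant and the fraction ratios, stayed at 0 under every alternative run. Of 1072 single-gene values under the alternatives, 20 lost their call, 4 gained one and 0 changed sign with a call, and 71 changed sign without passing in either setting. With the replicate number as a block, which the data did not support as a pairing, 7 and 5 members passed under AA in monosome and polysome RNA. In both lines 0 passed. For the ratio the block was the sample, which joins its monosome and polysome fractions. These had correlated deviations of 0.06 to 0.22 under AA. With the sample as a block, 0 members passed for the ratio under AA and in both lines. The replicate block moved the count of all genes under AA from 4645 to 5712 in monosome RNA and from 3883 to 3732 in polysome RNA. The sample block moved that of the ratio from 193 to 470. In the lines the replicate block moved monosome and polysome counts from 17 to 11 and 34 to 9 for *2OX*. For the sextuple mutant it moved them from 20 to 86 and 30 to 209. Without the variance trend 2760 genes passed in monosome RNA under AA. In monosome RNA under AA, 3 *CIPK* genes rose and 4 fell under quantile normalization, and 2 rose and 3 fell under nuclear scaling. Of the target genes there, 1 rose and 4 fell under nuclear scaling, and 1 rose and 1 fell without the filter on low values. The depth in reads is unknown, so the precision of the low values of *CBL5*, *CBL7* and *CBL8* cannot be given.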
